A study of Bos taurus with 36 samples.

Results

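Fore glands that had been milked more often until 2 days earlier were compared with the opposite fore glands of the same animals on day 23 of lactation. In 6 multiparous Holstein cows, the right side of the udder was milked 4 times daily (4×) and the left side 2 times daily (2×) on days 1 to 21, a design called unilateral frequent milking (UFM), and both sides were milked 2 times daily afterwards. A 4× gland of day 23 was thus a formerly 4× gland on a 2× schedule, and since every 4× gland was a right gland, side and milking history cannot be told apart. The comparison holds 12 of the 36 arrays of the series, chosen by their titles: the 6 arrays of 4× fore glands and the 6 arrays of 2× fore glands. They were paired by the replicate number in the titles, which was taken as the cow. The other 24 arrays came from rear glands of the same cows on days 21 and 40, so that day and gland position also change together. Biopsied tissue was trimmed of tissue around the parenchyma, and its RNA was hybridised to the GeneChip Bovine Genome Array. Levels are log2 values after robust multiarray averaging (RMA), and differential expression is the 4× level minus the 2× level within a cow, on the log2 scale.

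Milk secretion is controlled by hormones that reach all glands through the blood and by signals that arise within a gland as it fills and is emptied. Comparison of both sides of 1 udder holds the blood-borne part equal and leaves local differences. Secretory epithelial cells make caseins, whey proteins, lactose and milk fat. When milk removal slows, the same cells are known to make acute phase and antimicrobial proteins, such as serum amyloid A3, and to switch on immediate-early transcription factors. Amino acid transporters of the epithelium bring in the substrate for milk protein.

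Of 24128 probe sets, 112 controls were set aside and 24016 were tested, of which 13292 carry 1 gene symbol, 86 several and 10638 none. The medians of the 12 arrays lay between 6.04 and 6.15. Milk protein genes stood at the top of the arrays, as in lactating tissue: CSN2, which encodes beta-casein, had the highest level of any probe set. CSN2 ran from 14.99 through a median of 15.04 to 15.07 in 4× glands, against 14.94, 15.04 and 15.05 in 2× glands. The 4× glands and the 2× glands overlapped, and the 2 glands of cows 3 and 5 had the same value in every digit deposited. Markers of red blood cells lay near the lower end of the scale, with a list mean between 4.10 and 4.44 in 4× glands and between 4.02 and 4.45 in 2× glands. The number of cows limits the precision, and the p-values measure the spread between the 6 cows.

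On day 23 the expression profiles of 4× and 2× glands differed little. No probe set passed an adjusted p of 0.05 in limma (0.0% of those tested), and the smallest adjusted p was 1.0. At an unadjusted p under 0.05 there were 738 probe sets (3.07%), below the 1201 that 5% of the probe sets would make. Of these, 422 (1.76%) were higher and 316 (1.32%) were lower in 4× glands. Ordinary paired t tests, without moderation of the variances, also gave 0 at the adjusted threshold, with 848 at the unadjusted one. A limma fit in which the 3 days share 1 spread gave 635 (2.64%). With that spread, 15.9% of the probe sets of day 21 and 20.4% of those of day 40 were past the unadjusted threshold. The threshold below is the unadjusted one in the fit of the 6 differences of day 23, and intervals are the 95% intervals of that fit, on the log2 scale unless a fold is named. Since the fit borrows spread across probe sets, the genes the results turn on also have an exact permutation p, two-sided, from turning the sign of each cow's difference. Its smallest possible value is 0.03125, which any gene with 1 direction in 6 of 6 cows reaches. Nothing named below passed the adjustment over all probe sets.

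The size of the differences was small beside that in the rear glands of the other days. A mean difference of 0.5 log2 or more was found for 504 probe sets on day 21, for 15 on day 23 and for 147 on day 40. On day 21, 157 of these were higher and 347 lower in the 4× gland; on day 23 all 15 were higher; on day 40, 6 were higher and 141 lower. The median size of a difference was 0.09 on day 21, 0.06 on day 23 and 0.12 on day 40. The median spread of a probe set's differences over the cows was alike on the 3 days, with an SD of 0.224, 0.214 and 0.214. The counts moved with single cows: without cow 1 they were 95 on day 21, 11 on day 23 and 59 on day 40, and without cow 5 they were 855, 20 and 264. On each such removal the count of day 23 was the smallest of the 3 days. No test was made of these counts.

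**Figure D1:**
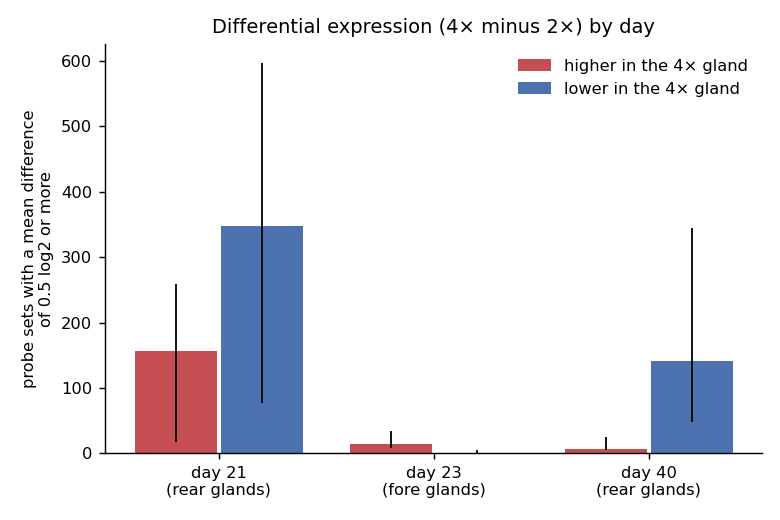
Number of probe sets with a mean difference (4× minus 2×) of 0.5 log2 or more, higher or lower in the 4× gland, on each biopsy day (21, 23 and 40); bars give the count over 6 cows and black lines the range when each cow was left out in turn. Day 23 has 15 higher and 0 lower probe sets, against 157 and 347 on day 21 and 6 and 141 on day 40.

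The 15 probe sets past 0.5 log2 on day 23 comprised 11 with a gene symbol. Of the 15, 14 were past the unadjusted threshold, against 3.07% of all probe sets. The 15 were chosen for the size of the same differences. Their p-values, intervals and fits without a cow are therefore a description and no independent evidence. The 15 included 2 acute phase genes, CHI3L1 and SAA3, at over 1 log2. SAA3, which encodes the serum amyloid A made by mammary epithelium, ran from 8.62 through a median of 9.89 to 13.19 in 4× glands, against 7.98, 8.94 and 10.21 in 2× glands. The groups overlapped. The 4× gland was higher in 5 of 6 cows, by 4.13 in cow 1 and by 0.69, 1.58, 1.05 and 0.64 in cows 2, 3, 5 and 6, whereas cow 4 had a difference of -0.05. The mean difference was 1.34 ± 0.38 (SE), a 2.53-fold higher level (95% interval of the fold 1.43 to 4.48; exact sign-flip p = 0.0625). Without cow 1 it was 0.78, and it stayed past the threshold in each of the 6 fits that left out a cow.

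CHI3L1 encodes a chitinase-like glycoprotein secreted by the gland as milk stasis sets in. It ran from 7.78 through 8.23 to 11.71 in 4× glands, against 6.20, 7.06 and 8.79 in 2× glands. The difference was 4.97 in cow 1, 2.05 in cow 5, between 0.86 and 1.04 in cows 3, 4 and 6, and -0.90 in cow 2. The mean difference was 1.48 ± 0.50 (SE), or 2.79-fold (95% interval of the fold 1.31 to 5.92; exact sign-flip p = 0.125), and 0.78 without cow 1, still past the threshold.

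**Figure D2:**
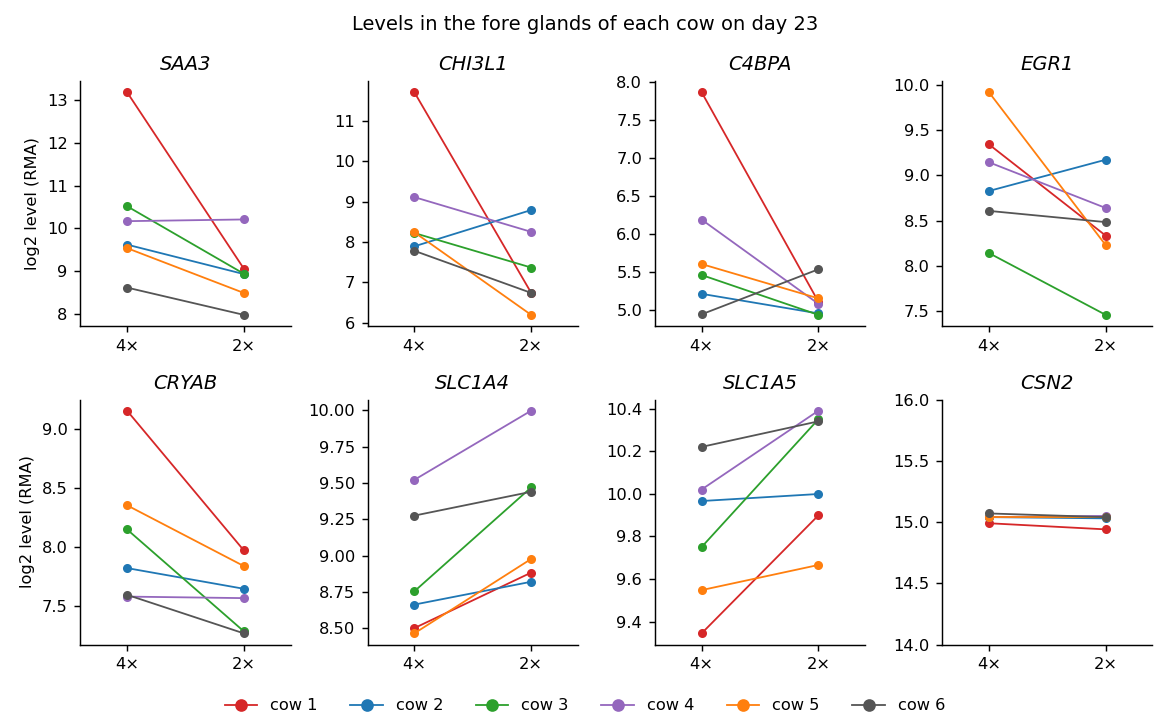
log2 level of 8 genes in the 4× gland (left) and the 2× gland (right) of each of 6 cows on day 23, a line joining the glands of 1 cow; each panel has its own vertical axis. Cow 1 has the steepest line for SAA3, CHI3L1, C4BPA and CRYAB, the lines of SLC1A4 and SLC1A5 go up to the 2× gland in 6 of 6 cows, and CSN2 is flat.

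Of the 13 acute phase and antimicrobial genes that were measured (of 17 listed), 3 were higher at p under 0.05, namely SAA3, CHI3L1 and CLU, and 0 were lower, where 1.76% of all probe sets were higher and 1.32% lower. The list's median difference was 0.19, against 0.00 over all probe sets. CLU encodes clusterin, a secreted chaperone. It ran from 10.00 through 10.84 to 12.06 in 4× glands, against 9.52, 10.33 and 11.07 in 2× glands. Its difference was 0.54 ± 0.22 (SE; 95% interval 0.07 to 1.02), with 2.08 in cow 1, and it was 0.24 without that cow. The exact sign-flip p of CLU was 0.1875. Without cow 1 or cow 5, or with the spread shared by the 3 days, it was no longer past the threshold. LBP, the lipopolysaccharide-binding protein, differed by 0.27 (95% interval -0.04 to 0.58), HP, haptoglobin, by 0.19 (95% interval -0.04 to 0.43) and LTF, lactoferrin, by 0.23 (95% interval -0.17 to 0.64). CD14, a lipopolysaccharide co-receptor, differed by -0.17 (95% interval -0.35 to 0.01) with a lower level in the 4× gland of 5 of 6 cows.

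The acute phase list was carried mainly by cow 1. The mean difference over its 13 genes was 1.27 in cow 1, whereas it was 0.30, 0.29 and 0.15 in cows 3, 5 and 6, and cows 4 and 2 had 0.04 and -0.15. Without cow 1 its median was 0.03 and 2 genes stayed past the threshold. Neutrophil markers, which can bring antimicrobial transcripts of their own, also had their highest mean difference in cow 1, at 0.62, and lay between -0.25 and 0.20 in the other cows. Over the 6 measured neutrophil genes (of 9 listed) the mean level lay between 4.90 and 5.58 in 4× glands and between 4.91 and 5.39 in 2× glands. Of these genes 0 passed p under 0.05 in either direction, against 3.07% of all probe sets. S100A12 differed by 0.40 (95% interval -0.11 to 0.91) and S100A8 by 0.19 (95% interval -0.20 to 0.58), with 2 and 4 cows higher. The part of neutrophils in the acute phase result was not tested.

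Among complement genes, 2 of 16 measured (of 19 listed) were higher at p under 0.05 and 0 were lower, against 1.76% and 1.32% of all probe sets, with a median of 0.06. C4BPA, the alpha chain of the C4b-binding protein that restrains complement, ran from 4.95 through 5.54 to 7.87 in 4× glands, against 4.94, 5.10 and 5.54 in 2× glands. It was higher in 5 of 6 cows, with a mean difference of 0.75 ± 0.30 (SE; 95% interval 0.11 to 1.39). CFI, the protease that cleaves C3b, ran from 5.55 through 6.04 to 7.80 in 4× glands, against 5.15, 5.45 and 6.56 in 2× glands, and differed by 0.62 ± 0.27 (SE; 95% interval 0.03 to 1.21) with 4 of 6 cows higher. Both were largest in cow 1, at 2.76 and 2.48, and without that cow they were 0.35 and 0.25, so that 0 complement genes were past the threshold. C4BPA was also not past it without cow 4, and CFI without cow 3 or 6. With the spread shared by the 3 days neither gene was past the threshold. The exact sign-flip p was 0.1562 for C4BPA and 0.2188 for CFI. CFB, factor B of the alternative pathway, differed by 0.43 (95% interval -0.10 to 0.97), and C3 by 0.21 (95% interval -0.08 to 0.49). The mean over the list was 0.57 and 0.41 in cows 1 and 3, and cows 2, 4, 5 and 6 lay between -0.12 and 0.03.

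Immediate-early genes, whose transcripts come up within minutes of a stimulus, held 4 of 23 measured (of 31 listed) that were higher at p under 0.05 and 0 that were lower (1.76% and 1.32% of all probe sets), with a median of 0.03 and 12 differences above 0 against 11 below. EGR1, a zinc finger transcription factor, ran from 8.14 through 8.99 to 9.92 in 4× glands, against 7.46, 8.41 and 9.17 in 2× glands. The 4× gland was higher in 5 of 6 cows, from 0.12 in cow 6 to 1.69 in cow 5, and cow 2 was lower, at -0.35. The mean difference was 0.61 ± 0.19 (SE), or 1.53-fold (95% interval of the fold 1.14 to 2.04; exact sign-flip p = 0.09375). It was 0.40 without cow 5, and the call held in each of the 6 fits that left out a cow, but not with the spread shared by the 3 days. A further EGR1 probe set, of lower level, differed by -0.04 (95% interval -0.30 to 0.23).

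The other 3 were a phosphatase and 2 regulators. DUSP1, which dephosphorylates MAP kinases, differed by 0.24 (95% interval 0.06 to 0.43) and was not past the threshold without cow 5. KLF4, a Krüppel-like factor, differed by 0.25 (95% interval 0.03 to 0.46), and ZFP36L2, which binds AU-rich messages and speeds their decay, by 0.28 (95% interval 0.01 to 0.55). KLF4 and ZFP36L2 lost the threshold without cow 1, 3 or 6; ZFP36L2 lost it without cow 5 too. FOS and JUN, the partners of the AP-1 factor, depended on the probe set. The brighter FOS probe set differed by 0.11 (95% interval -0.10 to 0.33) and a dimmer one by 0.42 (95% interval 0.01 to 0.82), and the dimmer one was past the threshold in 1 of 6 fits that left out a cow. The brightest JUN probe set differed by 0.07 (95% interval -0.13 to 0.26), with a difference of -0.37 in cow 2 and differences from 0.07 to 0.25 in the other 5 cows. A dimmer JUN probe set differed by 0.29 (95% interval 0.09 to 0.50), and all 5 JUN probe sets were above 0. The dimmer probe set stayed past the threshold in each of the 6 fits that left out a cow, but not with the shared spread.

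Of the other probe sets past 0.5 log2, that of CP belongs to a gene of the acute phase list. The rest of those given in this paragraph belong to no list with a shared direction. CYBRD1, a ferric reductase that reduces iron for uptake, ran from 5.81 through 6.63 to 7.76 in 4× glands, against 5.12, 6.19 and 6.82 in 2× glands. It differed by 0.68 ± 0.21 (SE; 95% interval 0.23 to 1.14), with 1.81 in cow 5 and 1.25 in cow 1, and cows 2 and 4 were lower (exact sign-flip p = 0.125). A brighter CYBRD1 probe set differed by 0.46 (95% interval -0.0022 to 0.92) and was not past the threshold. RBM5, an RNA-binding splicing factor, differed by 0.55 ± 0.18 (SE; 95% interval 0.16 to 0.95) at 1 probe set (exact sign-flip p = 0.2188), by 1.35 in cow 2 and 1.26 in cow 5, whereas 3 of 6 cows lay between -0.08 and 0.06. Its brightest probe set differed by 0.07 (95% interval -0.08 to 0.23) and a dim one by 0.25 (95% interval -0.08 to 0.58). Of the 28 measured splicing factors (of 32 listed), each taken at its brightest probe set, 0 passed p under 0.05, against 3.07% of all probe sets. LOC100296618 differed by 0.62 (95% interval 0.05 to 1.20), with 2.60 in cow 1 and 0.23 without that cow, and it was not past the threshold without cow 1 or cow 5. CP, ceruloplasmin, differed by 0.61 at a dim probe set (95% interval -0.06 to 1.28), with 2.92 in cow 1 and 0.15 without it. The 4 probe sets without a symbol differed by 0.68, 0.58, 0.54 and 0.52. The one at 0.54, which the study's table names IQGAP1, kept the threshold in each of the 6 fits that left out a cow. The one at 0.68 was 0.33 without cow 6 and lost it without cow 1, 2 or 6, that at 0.58 was 0.30 without cow 1 and lost it without cow 1 or 5, and that at 0.52 was 0.33 without cow 6 and lost it without cow 1, 3 or 6. Left without cow 1, 7 of the 15 stayed at 0.5 log2 or more and 7 at p under 0.05. The groups overlapped for 15 of 15.

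CRYAB was the 1 gene among the 15 that was higher in 6 of 6 cows. It encodes alpha-B crystallin, a small heat shock protein and chaperone. CRYAB ran from 7.58 through 7.99 to 9.16 in 4× glands, against 7.27, 7.61 and 7.97 in 2× glands. Cows 1 and 3 had differences of 1.18 and 0.86, cows 5, 6 and 2 had 0.51, 0.33 and 0.17, and cow 4 had 0.01. The mean was 0.51 ± 0.13 (SE), or 1.43-fold (95% interval of the fold 1.17 to 1.74), and it was 0.38 without cow 1, still past the threshold. Among the 15 measured heat shock genes, 2 were higher at p under 0.05, the other being HSPB1, a related small chaperone, and 0 were lower, against 1.76% and 1.32% of all probe sets. The median was 0.08, and the list's mean was 0.42 in cow 1, 0.10 over the 6 cows and 0.04 without cow 1. HSPB1 differed by 0.24 (95% interval 0.0047 to 0.47), with 0.86 in cow 1 and 0.11 without it, and its call was lost without cow 1, 3 or 5. HSP90AA1 differed by 0.26 (95% interval -0.06 to 0.58), and by 0.06 without cow 1. HSPA8 differed by 0.12 (95% interval -0.04 to 0.29) and HSPA1A by 0.04 (95% interval -0.14 to 0.23).

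Genes with 1 direction in every cow were looked at separately. The 4× gland was higher in 6 of 6 cows for 265 probe sets (1.1%) and lower in 6 of 6 for 273 (1.14%). Of genes with 1 symbol and a mean level of at least 5, 120 were higher and 103 lower in this way, and the 12 with the smallest p in each direction are named here. Their differences lay between 0.23 and 0.51 in size, and 24 of 24 were past the threshold. Having been chosen for small p and 1 direction, all 24 stayed past it in each of the 6 fits that left out a cow, and 1, TRAF3IP3, moved by over 1.5 times (-0.25 without cow 1, against -0.40). With the spread shared by the 3 days 6 of the 24 were not past the threshold: CXCR4, LTA4H, LOC404103, CXCL11, SELENOM and TRAF3IP3. In 0 of the 24 did the 4× and 2× groups lie apart.

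**Figure D3:**
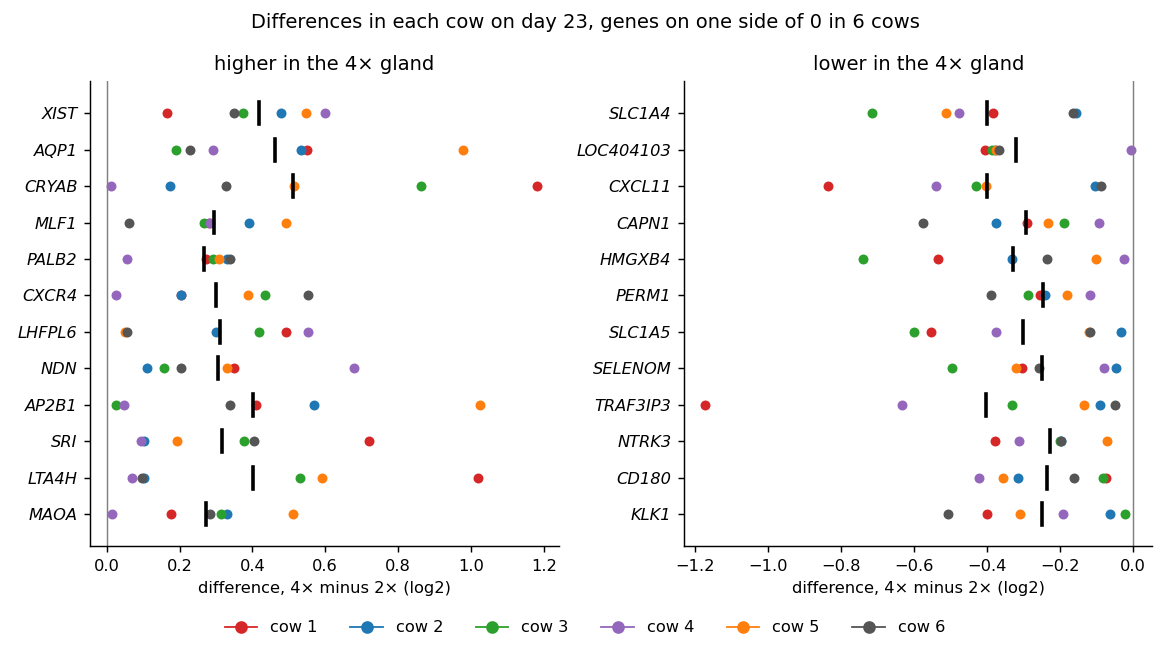
Difference (4× minus 2×, log2) of the 12 genes higher and the 12 genes lower in the 4× gland of 6 of 6 cows with the smallest p; each point is 1 cow, black bars are the means, and genes run from the smallest p at the top. The genes were chosen for points on 1 side of 0; cow 1 is furthest out for CRYAB, LTA4H, CXCL11 and TRAF3IP3, and cow 4 lies near 0 for LOC404103 and PALB2.

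The higher genes were of diverse roles. XIST, the RNA that silences 1 X chromosome of females, had the smallest p of the 24 (0.42 ± 0.08, SE; 95% interval 0.25 to 0.59) at a probe set that ran from 5.93 through 6.31 to 6.50 in 4× glands, against 5.67, 5.79 and 6.15 in 2× glands. The probe sets of XIST disagreed: of 6, the brightest 2 differed by 0.03 (95% interval -0.26 to 0.32) and -0.05 (95% interval -0.22 to 0.13), and a further bright one by -0.23 (95% interval -0.44 to -0.02). AQP1, a water channel of capillary endothelium, ran from 6.51 through 6.79 to 7.53 in 4× glands, against 5.98, 6.44 and 6.98 in 2× glands, with a difference of 0.46 ± 0.10 (SE; 95% interval 0.24 to 0.68). Its other 2 probe sets differed by 0.07 (95% interval -0.12 to 0.26) and -0.04 (95% interval -0.31 to 0.23). AP2B1, a subunit of the clathrin adaptor, was higher by 0.40 (95% interval 0.15 to 0.66), with 0.12 (95% interval -0.06 to 0.29) at its brightest probe set. LTA4H, which makes leukotriene B4, was higher by 0.40 (95% interval 0.14 to 0.66), and SRI, a calcium-binding protein, by 0.32 (95% interval 0.12 to 0.51), while 2 dim SRI probe sets differed by -0.06 and -0.07.

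CXCR4, the receptor of the chemokine CXCL12, was higher by 0.30 (95% interval 0.12 to 0.48), and its 4× levels from 6.34 to 6.53 overlapped little with the 2× levels from 5.84 to 6.43. MLF1 was higher by 0.30 (95% interval 0.13 to 0.47) at 1 probe set and by 0.20 (95% interval 0.03 to 0.36) at the other. NDN, a growth suppressor expressed from the paternal allele, was higher by 0.31 (95% interval 0.12 to 0.49), LHFPL6 by 0.31 (95% interval 0.12 to 0.50), MAOA, which oxidises serotonin and other amines, by 0.27 (95% interval 0.10 to 0.45), and PALB2, a partner of BRCA2 in DNA repair, by 0.27 (95% interval 0.10 to 0.43). In PALB2 the difference was 0.05 in cow 4 and lay between 0.27 and 0.34 in the other 5 cows. Of the 5 higher genes with several probe sets, 1 had the same sign at all of them.

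Of the 12 lower genes, SLC1A4, a neutral amino acid transporter (ASCT1), had the smallest p. It ran from 8.47 through 8.71 to 9.52 in 4× glands, against 8.82, 9.21 and 10.00 in 2× glands. Cows 3, 5, 4 and 1 had differences of -0.71, -0.51, -0.48 and -0.38, and cows 2 and 6 had -0.16 each. The mean was -0.40 ± 0.09 (SE), or 0.757-fold (95% interval of the fold 0.663 to 0.865), and a further probe set differed by -0.27 (95% interval -0.50 to -0.04). SLC1A5, the glutamine transporter ASCT2 of the same family, ran from 9.35 through 9.86 to 10.22 in 4× glands, against 9.67, 10.17 and 10.39 in 2× glands. It differed by -0.30 ± 0.09 (SE), or 0.812-fold (95% interval of the fold 0.706 to 0.934), from -0.60 in cow 3 to -0.03 in cow 2.

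Of the 12 solute carriers and ion transporters that were measured (of 18 listed, without SLC1A4), 2 were lower at p under 0.05, SLC1A5 and SLC7A5, and 1 was higher, SLC1A1, against 1.32% lower and 1.76% higher of all probe sets. SLC7A5, the light subunit of the large neutral amino acid exchanger, ran from 9.35 through 10.17 to 11.32 in 4× glands, against 9.58, 10.74 and 11.69 in 2× glands. Its difference of -0.32 ± 0.13 (SE; 95% interval -0.59 to -0.05) was -1.08 in cow 3, lay between -0.46 and -0.22 in cows 1, 4 and 5, and was 0.02 and 0.04 in cows 2 and 6. Without cow 3 it was -0.17, and without cow 3 or cow 4 it was not past the threshold (exact sign-flip p over the 6 cows = 0.125). SLC3A2, the heavy subunit of the same exchanger, differed by -0.02 (95% interval -0.23 to 0.19) and SLC38A2, a sodium-coupled neutral amino acid transporter, by -0.15 (95% interval -0.36 to 0.07). SLC1A1, a glutamate transporter, was higher by 0.27 (95% interval 0.01 to 0.52) in 4 of 6 cows and was not past the threshold without cow 1, 2, 4 or 5. The list's median was -0.01.

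The other lower genes had differences between 0.23 and 0.40 in size. CXCL11, a chemokine induced by interferon, was lower, at -0.40 ± 0.10 (SE; 95% interval -0.61 to -0.18), from 4.69 through 5.83 to 7.08 in 4× glands against 4.78, 6.51 and 7.19 in 2× glands; levels differed more between cows than between the glands of a cow. TRAF3IP3 was lower, at -0.40 (95% interval -0.68 to -0.12), with -1.17 in cow 1, and 2 further probe sets differed by -0.27 (95% interval -0.53 to -0.02) and -0.08 (95% interval -0.28 to 0.11). HMGXB4 was lower, at -0.33 (95% interval -0.54 to -0.12), LOC404103 by -0.32 (95% interval -0.49 to -0.15), CAPN1, a calcium-dependent protease, by -0.29 (95% interval -0.47 to -0.12), and SELENOM, a selenoprotein of the endoplasmic reticulum, by -0.25 (95% interval -0.43 to -0.07). PERM1 was lower, at -0.25 (95% interval -0.40 to -0.09), though a further probe set differed by 0.05, and KLK1, tissue kallikrein, by -0.25 (95% interval -0.43 to -0.07). CD180, a Toll-like receptor homologue of B cells, was lower, at -0.23 (95% interval -0.41 to -0.06), and NTRK3, the neurotrophin-3 receptor, by -0.23 (95% interval -0.39 to -0.07).

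The 4× and 2× groups did not overlap for 5 higher (0.0208%) and 4 lower (0.0167%) probe sets. Of these 9, 4 carry a symbol, and they were picked out after their values were seen. YWHAQ, a 14-3-3 protein, ran from 11.18 to 11.41 in 4× glands, against 10.98 to 11.16 in 2× glands, with a difference of 0.20 (95% interval 0.02 to 0.37). CACNA2D1, a calcium channel subunit, was higher by 0.20 (95% interval 0.04 to 0.36) at a dim level, ACP1 by 0.11 (95% interval -0.05 to 0.26), and DCAF11 was lower, at -0.13 (95% interval -0.29 to 0.02). The 2 probe sets of DCAF11 disagreed, with 1 below 0. YWHAQ was not past the threshold without cow 1, 2 or 5, nor CACNA2D1 without cow 2.

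Genes of milk synthesis showed little difference. Of the 7 measured milk protein genes (of 8 listed) 0 passed p under 0.05 in either direction, against 3.07% of all probe sets. With so few genes that count says little. The differences lay between -0.08 and 0.02, and the widest 95% interval bounds of any member were -0.24 and 0.17. LALBA, alpha-lactalbumin, ran from 14.38 through 14.43 to 14.46 in 4× glands, against 14.40, 14.45 and 14.50 in 2× glands (difference -0.03, 95% interval -0.18 to 0.12). PAEP, beta-lactoglobulin, differed by 0.02 (95% interval -0.13 to 0.17), and CSN1S1, alpha-S1-casein, by -0.08 (95% interval -0.24 to 0.09). These probe sets lie within 2 log2 of the top of the arrays' range, 15.07, where RMA levels may be compressed; this was not tested.

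Of 21 measured genes of fatty acid and triglyceride synthesis (of 22 listed), 1 was lower, 0 were higher, and 14 of 21 differences were below 0, with a median of -0.05. Over all probe sets 1.32% were lower and 1.76% higher past the threshold, and 50.6% of differences were above 0. LPL, the lipase that releases fatty acids from blood lipids, ran from 12.32 through 12.57 to 12.74 in 4× glands, against 12.44, 12.76 and 13.02 in 2× glands. It differed by -0.22 ± 0.08 (SE; 95% interval -0.40 to -0.05): by -0.35 to -0.25 in cows 1 to 5 and by 0.11 in cow 6. Without cow 2 or cow 3 it was not past the threshold (exact sign-flip p over the 6 cows = 0.0625). FASN, fatty acid synthase, differed by -0.08 (95% interval -0.25 to 0.08), ACACA, acetyl-CoA carboxylase, by -0.17 (-0.43 to 0.09), and SCD, the stearoyl desaturase, by 0.01 (-0.15 to 0.18). None of 8 genes of milk fat globule secretion, 12 of cholesterol synthesis and uptake (of 18 listed) or 8 of glucose uptake and lactose synthesis (of 10 listed) passed p under 0.05. The 8 genes of milk fat globule secretion all differed by 0.09 or less in size, on the lower side, with a median of -0.03, and without cow 1 the median was 0.00.

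**Figure D4:**
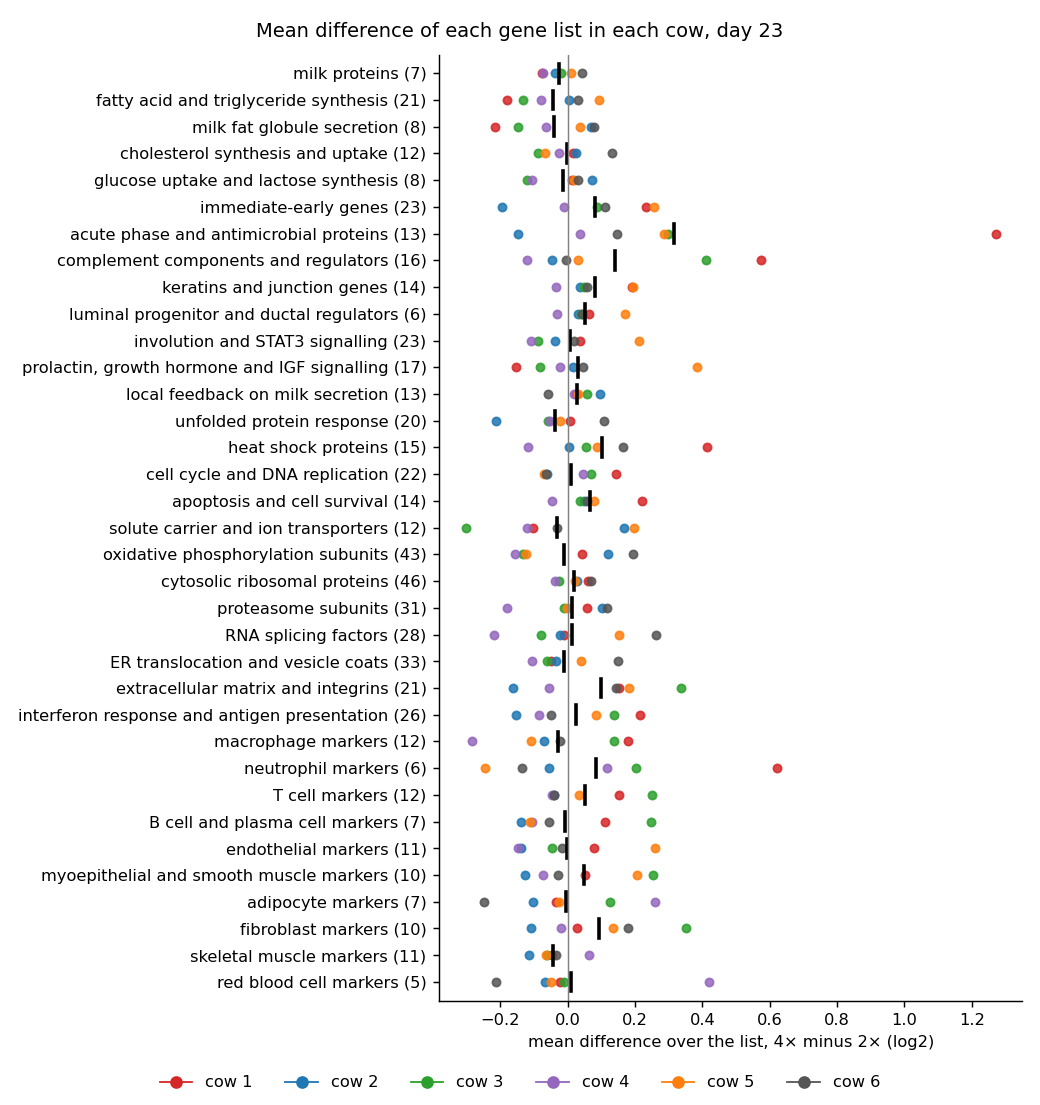
Mean difference (4× minus 2×, log2) of each gene list in each of 6 cows on day 23, with the number of measured genes in brackets; points are cows and black bars are the means over cows. Most points lie within 0.2 of 0; cow 1 stands at 1.27 for acute phase proteins and 0.62 for neutrophil markers, cow 5 at 0.38 for prolactin, growth hormone and IGF signalling, and cow 4 at 0.42 for red blood cell markers.

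Among genes of hormone and local signalling, IGFBP3 had the smallest p. IGFBP3 binds insulin-like growth factors and limits their access to the receptor. It ran from 9.41 through 9.93 to 10.55 in 4× glands, against 8.89, 9.79 and 9.95 in 2× glands, and was higher in 5 of 6 cows. The difference was 0.34 ± 0.10 (SE; 95% interval 0.13 to 0.56; exact sign-flip p = 0.0625), it stayed past the threshold in each of the 6 fits that left out a cow, and a dimmer probe set differed by 0.14 (95% interval -0.04 to 0.33). It was the 1 of 17 measured genes of prolactin, growth hormone and IGF signalling (of 22 listed) past the threshold, against 3.07% of all probe sets. PRLR, the prolactin receptor, differed by 0.23 (95% interval -0.03 to 0.48) with 5 of 6 cows higher, IGF2R by 0.11 (95% interval -0.06 to 0.28) and IGF1 by 0.04 (95% interval -0.19 to 0.27). The mean over this list was 0.38 in cow 5 and lay between -0.15 and 0.04 in the other cows.

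For local feedback on milk secretion, 1 of 13 measured genes (of 17 listed) was higher, STC1, stanniocalcin, by 0.19 (95% interval 0.01 to 0.37) at a dim level, and its call was lost without any 1 of cows 1 to 5. Over all probe sets 1.76% were higher past the threshold. PTHLH, the parathyroid hormone-related protein that milk filling and serotonin act on, differed by -0.16 (95% interval -0.37 to 0.06) and was lower in 5 of 6 cows. Of 23 measured genes of involution and STAT3 signalling (of 25 listed), 0 passed p under 0.05, with a median of 0.02. LIF, which starts STAT3 signalling in involution, differed by -0.12 (95% interval -0.28 to 0.04), CEBPD by 0.14 (95% interval -0.06 to 0.35) and SOCS3 by -0.09 (95% interval -0.28 to 0.11).

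Of 21 measured genes of the extracellular matrix and integrins (of 25 listed), 3 were higher at p under 0.05 and 0 were lower, where 1.76% of all probe sets were higher and 1.32% lower. Of these 21 differences 18 were above 0, as were 50.6% of those of all probe sets, and the median was 0.10. The list's mean was above 0 in 4 of 6 cows, at 0.14 to 0.34, and was -0.16 in cow 2 and -0.06 in cow 4. FBLN1, the matrix protein fibulin-1, was higher in 6 of 6 cows by a mean of 0.29 ± 0.10 (SE; 95% interval 0.07 to 0.51), from 7.76 through 8.04 to 8.98 in 4× glands against 7.09, 7.84 and 8.94 in 2× glands. MGP, an inhibitor of calcification, differed by 0.36 ± 0.14 (SE; 95% interval 0.07 to 0.66), with 1.07 in cow 3, and ITGAV, the integrin alpha-V chain, by 0.26 ± 0.10 (SE; 95% interval 0.04 to 0.48). Without cow 3, FBLN1 and MGP were 0.19 and 0.22 and past the threshold no longer; ITGAV lost it without cow 1, 5 or 6, and MGP also without cow 1. COL3A1 and COL1A2, fibrillar collagens, differed by 0.18 (95% interval -0.06 to 0.41) and 0.13 (95% interval -0.08 to 0.35), and COL1A1 by -0.12 (95% interval -0.31 to 0.06).

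Markers of other cells show how far the biopsies of a pair were alike; in such bulk tissue, fewer cells of a type and less RNA per cell cannot be told apart. For each list in this paragraph, the shares over all probe sets were 1.76% higher and 1.32% lower past the threshold. Of 10 fibroblast markers 1 was higher, POSTN, by 0.21 (95% interval 0.0045 to 0.41), with a median of 0.14 over the list. The list's mean level lay between 7.89 and 8.56 in 4× glands and between 7.54 and 8.66 in 2× glands, and its mean difference was 0.35 in cow 3 and 0.18 and 0.13 in cows 6 and 5, while cows 1, 2 and 4 lay between -0.11 and 0.03. Both lists hold collagen genes, and the part of these markers in the matrix result was not tested. Of 11 measured endothelial markers (of 12 listed), 1 was lower, ENG, by -0.21 (95% interval -0.38 to -0.03), in 6 of 6 cows, with a median of 0.01. Of 12 T cell markers 1 was higher, CD4, by 0.23 (95% interval 0.01 to 0.45) in 4 of 6 cows, and CD3E differed by 0.05 (95% interval -0.20 to 0.30). The call was lost without cow 2, 3, 5 or 6 for POSTN, without cow 2, 3 or 6 for ENG, and without cow 1, 3 or 4 for CD4.

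No marker passed p under 0.05 among 12 measured macrophage, 7 B cell and plasma cell, 10 myoepithelial, 7 adipocyte or 5 red blood cell genes. Over all probe sets 1.76% were higher and 1.32% lower past the threshold, here and for the lists that follow. Myoepithelial KRT5 differed by 0.17 (95% interval -0.01 to 0.36). Of 11 measured skeletal muscle markers (of 13 listed) 1 was lower, NEB, nebulin, by -0.27 (95% interval -0.52 to -0.03), and the call was lost without cow 1, 2, 3 or 5. The 3 probe sets of NEB disagreed, with 1 below 0. MYH7 differed by 0.05 (95% interval -0.16 to 0.26). Of 14 measured keratin and junction genes (of 18 listed) 1 was higher, KRT7, a keratin of luminal epithelium, by 0.28 (95% interval 0.03 to 0.52), with 0.91 in cow 1 and 0.15 without it, and its call was lost without cow 1, 2 or 3. EPCAM differed by 0.15 (95% interval -0.04 to 0.34). Of 6 measured luminal progenitor and ductal regulators (of 14 listed) 0 passed the threshold. A gene counted as measured in the lists only at a probe set with 1 symbol in the platform annotation. Probe sets without such a symbol, named TFCP2L1 and SOX4 in the study's table, differed by 0.21 (95% interval 0.03 to 0.39) and 0.30 (95% interval 0.0034 to 0.60). Both were past the threshold, but TFCP2L1 not without cow 1, 2 or 6, nor SOX4 without cow 1, 3, 5 or 6. The probe set that the annotation names SOX4, which is the one counted in the list, differed by 0.11 and was not past the threshold. The probe sets that the study's table names SOX9, FOXQ1 and ALDH1A3 were also not past it, and that table's KRT8 and ERBB3 probe sets are given below.

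The lists of general cell function lay close to 0. No gene passed p under 0.05 among 43 subunits of oxidative phosphorylation, 46 cytosolic ribosomal proteins, 31 proteasome subunits, 33 genes of endoplasmic reticulum translocation and vesicle coats, 22 of the cell cycle and DNA replication or 14 of apoptosis and cell survival, and the medians of these lists lay between -0.03 and 0.08. Of 20 measured genes of the unfolded protein response (of 24 listed) 1 was lower, TRIB3, by -0.19 (95% interval -0.37 to -0.01), and the call was lost without cow 2, 3, 5 or 6. Over all probe sets 1.32% were lower and 1.76% higher past the threshold. HSP90B1, a chaperone of the endoplasmic reticulum, differed by 0.22 (95% interval -0.02 to 0.46). Of 26 measured genes of interferon response and antigen presentation (of 32 listed) 1 was higher, PARP9, by 0.23 ± 0.08 (SE; 95% interval 0.06 to 0.39), in 6 of 6 cows and in each of the 6 fits that left out a cow.

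The study's own table of 75 genes was chosen on these samples, the day 23 arrays included, and its counts are therefore no independent evidence of a direction. Of its genes 64 were above 0 and 11 below, 32 were higher and 1, NEB, was lower at p under 0.05, against 3.07% of all probe sets in either direction, and the median was 0.28. Without cow 1, 17 stayed past the threshold, and with the spread shared by the 3 days 7. The study itself reported far fewer of the 75 as higher on day 23 than the 32 found here. Its count, from a test of the arrays that it does not name, was close to that with the shared spread. Beyond those already described, a probe set that the table gives without a gene symbol differed by 0.50 (95% interval 0.21 to 0.78) and stayed past the threshold in each of the 6 fits that left out a cow. The probe set without a symbol described above at 0.54 (95% interval 0.22 to 0.86) is named IQGAP1 in that table. Next in order of p were probe sets named there as SLC1A1 (0.44, in 6 of 6 cows; 95% interval 0.18 to 0.70) and SORT1 (0.33, in 6 of 6 cows; 95% interval 0.13 to 0.53). They were followed by CYB561 (0.37; 95% interval 0.14 to 0.59) and ERBB3 (0.41; 95% interval 0.16 to 0.67). The platform annotation names the last of these probe sets RGN and gives no symbol for those of IQGAP1, SLC1A1 and SORT1. The probe set that stands for ERBB3 in the lists differed by 0.16 and was not past the threshold. KRT8 differed by 0.40 (95% interval 0.10 to 0.70), JUN by 0.29 (95% interval 0.09 to 0.50) and MLPH by 0.31 (95% interval 0.08 to 0.53) at the probe sets used there; KRT8 and MLPH were 0.23 and 0.20 without cow 1.

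For probe sets chosen on their day 23 values, the direction was often opposite to that in the rear glands on the other days. Of the 15 probe sets past 0.5 log2, 14 had a difference below 0 on day 21 and 12 below 0 on day 40. Over all probe sets the median difference was 0.02 on day 21 and 0.03 on day 40. The change of a difference between days was tested in a limma fit of the 18 differences with a mean for each day. No probe set passed the adjusted threshold for either change (0.0%), and at an unadjusted p under 0.05 there were 2593 (10.8%) for day 23 against day 21 and 2855 (11.9%) for day 40 against day 23. Cow was not a term of that fit, so the differences of 1 cow on the 3 days counted as independent. With cow as a random block, chosen after the data were seen, the counts were 2874 and 3193, and 0 passed the adjusted threshold. The genes below were chosen for their values on day 23, which enter both changes, so that their changes are a description. SAA3 differed by -1.56 on day 21, 1.34 on day 23 and -0.64 on day 40, so that the limma fit gave a shift of 2.90 ± 0.78 (SE; adjusted p = 0.386) and then of -1.98 ± 0.78 (SE; adjusted p = 0.417). EGR1 differed by -1.24, 0.61 and -0.87 on the 3 days, with changes of 1.85 ± 0.43 and -1.48 ± 0.43 (SE), both past the unadjusted threshold.

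CRYAB differed by -0.88 on day 21, 0.51 on day 23 and -0.51 on day 40, and both changes were past the unadjusted threshold. RBM5 differed by -0.75, 0.55 and 0.23, and of its changes the first passed the unadjusted threshold and the second (-0.33 ± 0.34, SE) did not. In the opposite sense, SLC1A4 differed by 0.39, -0.40 and 0.19, and SLC1A5 by 0.23, -0.30 and 0.12, with both changes of each gene past the unadjusted threshold. AQP1 and MAOA kept 1 side: AQP1 differed by 0.62, 0.46 and 0.38, and MAOA by 0.30, 0.27 and 0.27, with changes not past the threshold. Of the 24 genes named for 6 of 6 cows, 9 had the same sign on day 21 as on day 23, and 7 on day 40 as on day 23. Over the 16541 probe sets with a mean level of at least 5 on the arrays of day 23, the mean differences of day 23 had a Pearson correlation of -0.291 with those of day 21 and of -0.174 with those of day 40. These are correlations across probe sets, which are not independent, of glands that share cows but not arrays. Neither the correlations nor the counts of signs were computed without cow 1. Without that cow, 95 probe sets differed by 0.5 log2 or more on day 21 and 59 on day 40, against 504 and 147 with it.

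**Figure D5:**
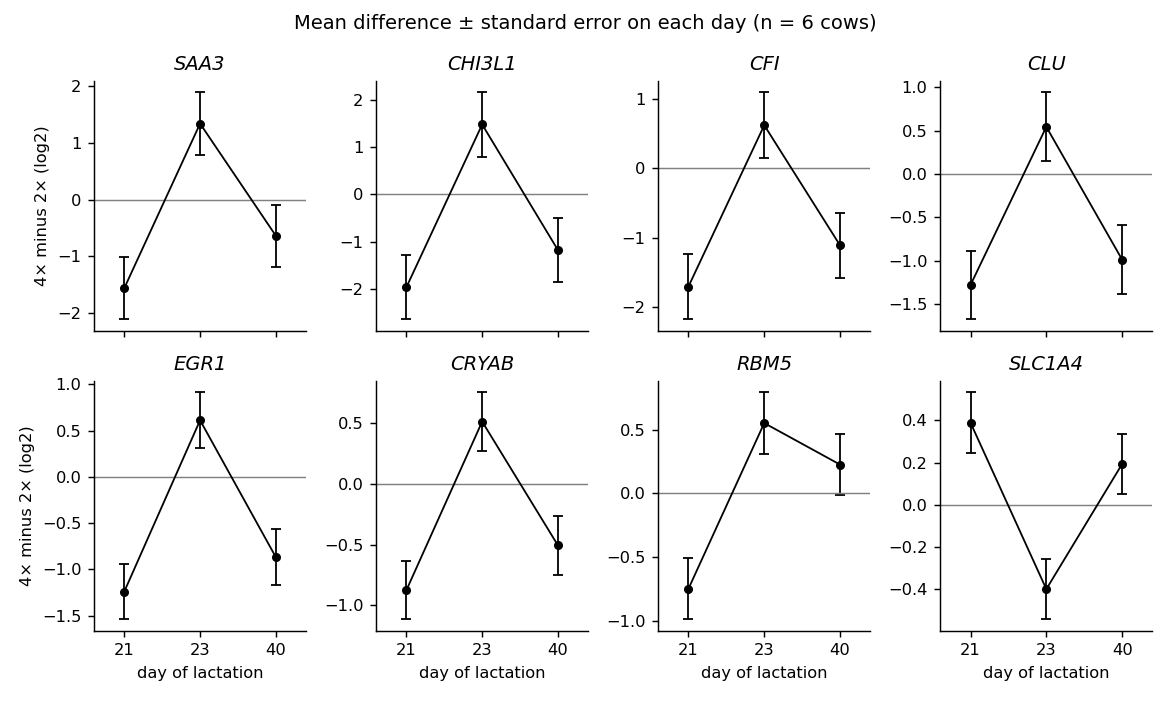
Mean difference (4× minus 2×, log2) of 8 genes on each biopsy day (21, 23 and 40); points are means over 6 cows and error bars standard errors of the limma fit with 1 spread for the 3 days, and each panel has its own vertical axis. Glands were rear on days 21 and 40 and fore on day 23; 7 genes lie above 0 on day 23 and below 0 on day 21, and SLC1A4 the other way round.

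The cows differed in how much their 2 glands differed. Differences of 1 log2 or more were found at 86 higher and 24 lower probe sets in cow 1, 6 and 3 in cow 2, 16 and 15 in cow 3, 6 and 14 in cow 4, 91 and 3 in cow 5, and 21 and 2 in cow 6. Some of the genes furthest out in each cow are given here, chosen after their values were seen, with 1 pair of glands behind each value and no test. In cow 1 the furthest genes higher in the 4× gland were CHI3L1, SAA3, C4BPA, LOC100296618 and CFI, at 2.48 to 4.97, and the furthest lower was SLC34A2, a phosphate transporter, at -1.60. In cow 5 they were CHI3L1 at 2.05, CYBRD1 at 1.81, EGR1 at 1.69 and a dimmer probe set of C3, the central complement component, at 1.60, and the lowest was OOEP at -1.40.

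In cow 3 the beta-defensin DEFB4A (1.70 at 1 of its probe sets), SAA3 (1.58) and the complement factor CFB (1.34) were among the highest, and DLK1 lay between SAA3 and CFB. The lowest in cow 3 were LOC785756 at -2.52 and BDA20 at -1.66, followed by KLF5 at -1.27, and GARS1, glycyl-tRNA synthetase, was at -1.16. In cow 4 DEFB4A was lower, at -2.12, GPNMB, a glycoprotein of macrophages, by -1.50, and CCL19, a chemokine that draws lymphocytes, by -1.42, and C4BPA was higher by 1.11. DEFB4A thus lay on opposite sides in cows 3 and 4. In cow 2 RBM5 (1.35) and WARS1, tryptophanyl-tRNA synthetase (1.30), were highest, LOC508666 (-1.17) and SPADH1 (-1.10) were lowest, and CHI3L1 was at -0.90. In cow 6 the scavenger receptor MSR1 (1.16) and UBD, a ubiquitin-like protein induced by interferon (1.11), were highest, and KRT6B (-0.95) was lowest.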

How the data were processed

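The authors deposited 1 table of log2 expression values for 36 arrays, made from GeneChip Bovine Genome Array scans with GeneChip Operating Software and RMA in BioConductor; RMA corrects background, sets all arrays to 1 distribution and summarises probes, so that a shift of all genes cannot be seen and levels at the top of the range may be compressed. Tool versions are not given in the sources used here. Genes were named from the platform annotation (13283 symbols looked up by gene ID, 0 changed). All columns were used. Arrays have no read depth.

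The 6 within-cow differences (4× minus 2×) of day 23 were tested with limma 3.58.1 in R 4.3.3 (intercept only, eBayes, Benjamini-Hochberg over 24016 probe sets); the methods name no test for the arrays. Changes between days used the 18 differences with a mean for each day and no term for cow. Intervals are 95%. Pairs come from the replicate number in the titles, which name no cow, and an equal number was taken to mean the same cow. Deviations from the group means correlated within each of the 6 pairs (0.242 to 0.665). In cow 4, though, the 4× gland correlated more with the 2× gland of another cow (0.266). The script was tested on simulated data.

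Genes were named by rule: the 12 higher and 12 lower genes with the smallest p among those with 1 symbol, a mean level of at least 5 and 1 direction in 6 of 6 cows; the 3 smallest p of each list, a gene taken at its brightest probe set; and the study's table at p under 0.05. Others in the text were added after values were seen. The members, lists and rules were chosen with earlier results of these data known. Alternatives were the pairing, the spread, moderation, array weights, dim probe sets, scaling, controls, probe sets per gene and each cow left out; cow as a random block over the days was added after the data were seen.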

Additional observations from a re-analysis of the deposited data

Results flagged for a closer look

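The 6 differences of each of 126 genes or list means were examined for 1 cow that stood apart from the other 5 by more of the range than Dixon's 95% critical value for 6 samples allows. This picked out 10, and chance alone picks out about 1 in 20. Cow 1 stood apart in 4, cow 4 in 3 and cows 2, 5 and 6 in 1 each. In cow 1 the acute phase list mean was 1.27 (others -0.15 to 0.30), LOC785058, which the platform annotation names LOC100296618, was 2.60 (others -0.12 to 0.60), a dim probe set of CP was 2.92 (others -0.40 to 0.55) and HSPB1 was 0.86 (others -0.04 to 0.29). In cow 4, PALB2 was 0.0545 (others 0.27 to 0.34), LOC404103 was -0.00455 (others -0.41 to -0.37) and the mean of the red blood cell markers was 0.42 (others -0.21 to -0.01). JUN was -0.37 in cow 2 (others 0.07 to 0.25), LPL was 0.11 in cow 6 (others -0.35 to -0.25), and the mean of the prolactin, growth hormone and IGF signalling list was 0.38 in cow 5 (others -0.15 to 0.04).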

How the results depend on the processing

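The count of 738 probe sets at p under 0.05 was 242 with no replicate block, where 221 were shared with the paired fit, 357 with arrays scaled to 5 reference genes, and 312 with 1 probe set for each gene, where fewer were tested; it lay between 525 (without cow 1) and 1339 (without cow 4) when each cow was left out. Under the 17 alternatives 0 probe sets passed the adjusted threshold. The share of higher probe sets, 57.2% (exact 95% binomial interval 53.5 to 60.8, counting error only), was 52.6% with cow as a random replicate block, 52.4% with the spread shared by the 3 days, 47.9% without moderation, 52.7% with arrays centred on their median, 47.9% with reference scaling, 61.9% with 1 probe set for each gene, and 50.6% (without cow 6) to 62.9% (without cow 2) when each cow was left out, so that the excess of higher probe sets did not hold throughout. For the change from day 21 to day 23, 2593 became 1082 with no replicate block and 1193 (without cow 1) to 2979 (without cow 2), and the count of 0 at the adjusted threshold was 1 without cow 1, so the range was 0 to 1. For the change from day 23 to day 40, 2855 became 1502 with no replicate block and 1014 (without cow 6) to 4277 (without cow 2), with 1549 without cow 1. With cow as a random replicate block over the days, an alternative chosen after the data were seen, these counts were 2874 and 3193, and the correlation of a cow's differences over the days was 0.0573. Of the 78 named probe sets at p under 0.05, 25 kept it with no replicate block, 35 with the shared spread, 40 without moderation, 50 with the random block, 63 with reference scaling, 66 to 77 under the other settings that fitted all 78, and 49 to 71 when a cow was left out; 0 changed sign. The reference scaling moved the median of all probe sets by less than 0.1, to -0.02. The cause was not tested. Signal near the floor limits the 7475 probe sets with a mean level under 5.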

Other observations

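A list of 27 genes that amino acid shortage is known to switch on through ATF4 was drawn up after the lower values of SLC1A4, SLC1A5, SLC7A5 and TRIB3 had been seen, so it is given as a description with no test. Of the 25 measured, 21 had a lower level in the 4× gland, and the median difference was -0.10. Over all probe sets 50.6% of differences were above 0. The 4 genes that prompted the list are part of its counts and its median. At an unadjusted limma p under 0.05, 5 were lower and 0 higher, against 1.32% and 1.76% of all probe sets. The 5 were the 4 genes that prompted the list and VLDLR, the very low density lipoprotein receptor. VLDLR differed by -0.23 (95% interval -0.44 to -0.02) and was not past that threshold without cow 1, 2 or 3. ATF4 itself, at a mean level of 11.40, differed by -0.10 (95% interval -0.28 to 0.07) and was lower in 5 of 6 cows. The list was not lower throughout: cows 3, 4 and 5 had mean differences of -0.41, -0.28 and -0.19, while cows 1, 2 and 6 had 0.10, 0.12 and 0.09. Single members lay on opposite sides in different cows: GARS1, glycyl-tRNA synthetase, was -1.16 in cow 3 and 0.63 in cow 2, and MTHFD2, a mitochondrial folate enzyme, was -0.80 in each of cows 3 and 4 and 0.86 in cow 2.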
